A study of Rattus norvegicus with 9 samples.

Results

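Hypoxic and normoxic rat pulmonary artery smooth muscle cells (PASMCs), the contractile cells in the wall of lung arteries, were compared across all genes of an expression array. The comparison took 6 of the 9 arrays of a study whose other arrays held hypoxic cells given the flavonol quercetin: 3 arrays labelled hypoxia and 3 labelled normoxia, chosen by their titles. The cells came from male SD rats and were used at culture generation 4. All were kept at 37 °C, went 24 h without serum and were then held for 24 h in medium with 10% serum, where the labels give 0.1% DMSO as the vehicle in place of quercetin. Hypoxic cells stood in a sealed chamber holding 1% oxygen and the normoxic controls in a normoxic incubator, both at 5% carbon dioxide. The labels do not say how long the chamber was used or whether replicates were separate cultures or animals. The p-values therefore reflect the scatter of these samples alone, and that scatter may be technical. Of 41012 non-control probes, 26653 were kept because all 3 arrays of some group read them well above background, and they gave 22102 tested genes, 11811 with a gene symbol.

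Lung arteries constrict when oxygen falls, and with lasting hypoxia their muscle layer thickens and lays down matrix, a process known from pulmonary hypertension. In these cells low oxygen stabilises the hypoxia-inducible factors (HIF), transcription factors that switch on glucose uptake, glycolysis and growth factor genes. Tone is set by calcium entry and release on one side and by potassium channels and cyclic GMP, made by the guanylate cyclases, on the other. The results below take the gene classes outside the HIF, glycolysis, cell division and inflammatory programmes.

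Each value is the log2 of a gene's processed signal minus the 75th percentile of its array, called the log2 value here, and each difference is the hypoxia mean minus the normoxia mean of 3 arrays each. The 75th percentile signal was 627 to 640 in normoxia and 439 to 462 in hypoxia, and 65.1% to 74.3% of probes were well above background in normoxia against 53% to 66.6% in hypoxia. Normoxia replicates 1 and 2 lay on slide 1, while normoxia replicate 3 shared slide 2 with the 3 hypoxia arrays. The difference from replicate 3 alone is therefore free of the slide, but it rests on 1 normoxia array. Across genes the hypoxia arrays correlated with each other at 0.989 to 0.993 and with the normoxia arrays at 0.933 to 0.957, where normoxia replicate 2 gave the lowest values. That replicate was the normoxia array farthest from the hypoxia mean in 52.1% of the genes called higher and 53.5% of those called lower. Differences without it are given for some genes only. Others also depended on it: without it Car9 moved from 2.63 to 2.15, Insig1 from 2.17 to 1.51 and Cpt1a from -3.28 to -2.75. As a check of the labels, Car9, a HIF-induced carbonic anhydrase, measured 1.97, 0.77 and 2.42 in normoxia and 4.36, 4.32 and 4.35 in hypoxia. The glycolytic kinase Pgk1 rose by 2.43 ± 0.31 and the glucose transporter Slc2a1 by 2.17 ± 0.45, Hif1a itself fell by 0.67 ± 0.12, and the proliferation marker Mki67 fell by 0.82 ± 0.10.

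Of 7 smooth muscle markers looked up, Acta2 had no probe under its symbol. The other markers, Tagln, Cnn1, Myh11, Lmod1, Smtn and Actg2, were well above background on all 6 arrays. Their summed linear signal was 169 to 293 times the array's 75th percentile in normoxia and 377 to 399 times in hypoxia, and 3 of the 6 were called higher. Of 10 endothelial markers 5 were not above background on any of the 6 arrays (Pecam1, Tek, Tie1, Emcn and Cldn5), 1 of the 3 tested was called higher, and the summed signal was 6.47 to 8.59 against 9.66 to 10.6. Of 10 epithelial markers Epcam, Cdh1 and Krt19 were not above background on any array. The summed epithelial signal was nevertheless 3.93 to 5.85 in normoxia and 39.7 to 47.1 in hypoxia, and of the 6 tested the keratins Krt7, Krt18 and Krt8 were called higher and 0 lower. Of 13 leukocyte markers Aif1, Itgam and Cd3e were not above background on any array. Of the 9 tested 6 were called higher and 1 lower, and the sums were 5.19 to 6.19 against 4.88 to 5.27. Fibroblast markers summed to 123 to 226 against 156 to 163 (2 higher and 4 lower of 9 tested), and mesothelial markers to 15.9 to 17.3 against 27.0 to 29.5 (1 higher and 1 lower of 4). These counts are to be read beside the shares over all tested genes, 35.3% called higher and 28.9% lower. A linear sum leans on its brightest member and does not give the level of each marker. For the smooth muscle list that was Tagln (6.97, 7.58 and 7.13 against 8.30, 8.21 and 8.24). For the epithelial list that was Krt7 (1.76, 2.24 and 2.32 against 5.34, 5.04 and 5.31). For the leukocyte list it was Cd14, the marker called lower (1.87, 2.15 and 1.43 against 0.83, 0.79 and 0.99). The part of other cells in the results was not tested, and in such bulk samples fewer cells of a type and less RNA per cell cannot be told apart.

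Most of the array differed between the groups. At a Benjamini-Hochberg adjusted p under 0.05 in a limma fit, the rule for a call throughout, 14190 genes changed (64.2% of those tested), 7801 higher in hypoxia (35.3%) and 6389 lower (28.9%). A change of at least 2-fold was seen in 5323 of them, 2489 higher and 2834 lower. In 15840 genes (71.7%) every hypoxia array lay on one side of every normoxia array. The median difference over all genes was 0.10. With normexp background correction, which adds an offset of 50 to every signal and so shrinks differences of dim probes, 6719 genes were called. Scaling to 8 spike-in probes instead of the 75th percentile lowered the median of all genes by 0.50, to -0.40, and gave 2664 genes higher and 10761 lower, so every direction below is relative to the array's 75th percentile.

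The direction of nearly all calls was the same within the shared slide. Of the 14190 called genes, 14184 had the same sign when the hypoxia mean was set against normoxia replicate 3 alone, whose median difference over all genes was 0.04. Both differences share the hypoxia arrays and replicate 3, so much of this agreement is built in. With slide as a block in the fit, which leaves 5 residual degrees of freedom, 9746 genes were called (44.1%), and 9490 genes passed both fits in one direction (42.9% of all genes, 22.3% higher and 20.6% lower). The difference in the block fit is again the hypoxia mean minus normoxia replicate 3 alone. Passing both fits is therefore not a separate second check. Of the 6 genes whose sign turned, only Or9k7, an olfactory receptor gene, has a symbol: it was called at 0.79 ± 0.30 (adjusted p = 0.043) and stood at -0.01 against replicate 3.

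**Figure D1:**
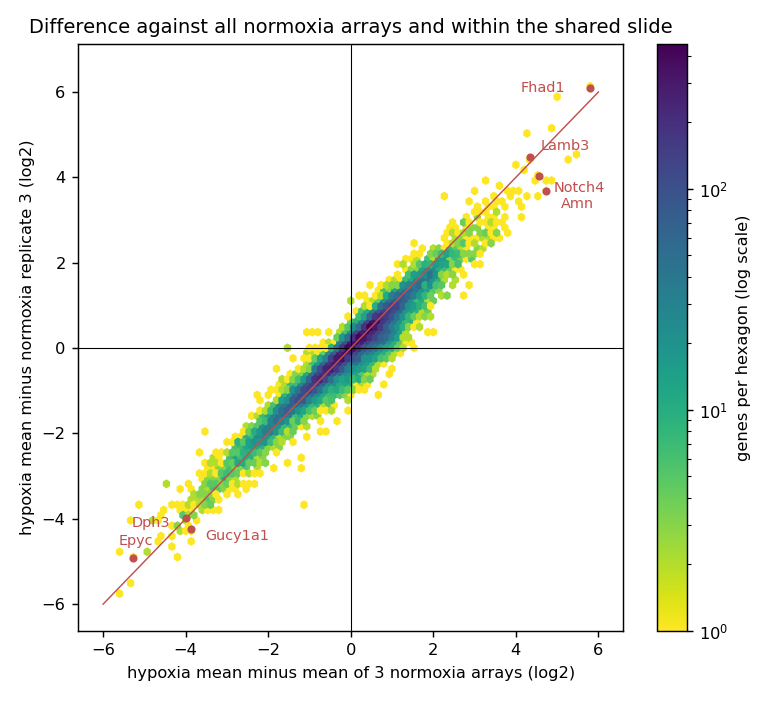
Difference of the hypoxia mean from the mean of the 3 normoxia arrays (x axis, log2) and from normoxia replicate 3 alone, which shares the hypoxia slide (y axis, log2), for 22102 genes binned in hexagons coloured by the number of genes. Red points are named genes and the red line marks equal values; Fhad1 lies at 5.79 and 6.09 and Amn at 4.74 and 3.67.

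The genes with the widest clear space between the groups were chosen by the smallest of the 9 differences between a hypoxia and a normoxia array. Fhad1, which encodes a forkhead-associated domain protein, led those higher in hypoxia. It measured -7.03, -7.23 and -7.58 in normoxia, where it was not above background on any array, and -1.46, -1.37 and -1.64 in hypoxia, which makes it at least 25.1-fold higher (adjusted p = 1.3e-06). Tmem74b, a transmembrane protein gene, measured -7.14, -7.46 and -7.59 in normoxia, again not above background, and -2.44, -2.57 and -2.45 in hypoxia, at least 12.6-fold higher (adjusted p = 2.4e-06). Both groups of arrays were tight, and neither gene had a second probe.

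Bright genes with the same clear separation included Lamb3, the laminin beta 3 chain of basement membranes, at 0.27, 0.55 and 0.21 in normoxia and 4.72, 4.64 and 4.66 in hypoxia. Its difference was 4.33 ± 0.10 (adjusted p = 7.4e-07) and 4.47 against replicate 3. All 3 of its probes moved together, by 4.33, 4.32 and 3.49. Notch4, a Notch receptor known from vessels, measured -0.25, -1.88 and -0.28 in normoxia and 3.72, 3.72 and 3.82 in hypoxia (4.56 ± 0.38, adjusted p = 2.6e-05). Normoxia replicate 2 lay lowest for Notch4, and without it the difference was 4.02. Il1rap, the shared chain of interleukin-1 family receptors, went from 1.21, 0.91 and 1.21 to 4.49, 4.40 and 4.44 (3.33 ± 0.10). Pgf, placental growth factor, a ligand of the VEGF receptor family, went from -1.13, -1.56 and -1.15 to 2.23, 2.13 and 2.19 (3.46 ± 0.12). For both genes the hypoxia arrays lay close together and the groups did not overlap.

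The promoters of Tmem74b, Lamb3 and Notch4 are shown because these were the 3 genes of widest separation, among those higher, whose promoter held a core of the hypoxia response element, ACGTG or GCGTG on either strand. They are RefSeq sequences of build GRCr8, 250 bases before to 50 after the start, read 5′ to 3′ on the gene's strand, with each core in capitals. They lie at chr3:160679714-160680013 (plus strand), chr13:107362303-107362602 (plus strand) and chr20:4189023-4189322 (minus strand).
Tmem74b: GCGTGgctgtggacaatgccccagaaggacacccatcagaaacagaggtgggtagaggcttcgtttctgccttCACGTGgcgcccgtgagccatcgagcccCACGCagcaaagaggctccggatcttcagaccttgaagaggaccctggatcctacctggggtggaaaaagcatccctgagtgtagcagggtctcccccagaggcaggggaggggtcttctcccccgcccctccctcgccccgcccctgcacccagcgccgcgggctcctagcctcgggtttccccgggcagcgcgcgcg
Lamb3: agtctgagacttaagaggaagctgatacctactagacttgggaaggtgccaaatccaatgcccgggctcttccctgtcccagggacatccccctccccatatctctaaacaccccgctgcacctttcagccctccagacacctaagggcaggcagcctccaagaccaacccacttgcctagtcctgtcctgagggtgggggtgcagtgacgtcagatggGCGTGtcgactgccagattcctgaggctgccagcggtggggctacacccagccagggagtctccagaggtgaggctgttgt
Notch4: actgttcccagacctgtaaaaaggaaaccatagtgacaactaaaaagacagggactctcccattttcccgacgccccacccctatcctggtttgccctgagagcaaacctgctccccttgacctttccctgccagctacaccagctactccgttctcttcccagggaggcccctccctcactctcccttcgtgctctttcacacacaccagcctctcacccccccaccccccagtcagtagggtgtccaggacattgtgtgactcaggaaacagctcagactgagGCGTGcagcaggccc
Tmem74b held 4 matches, of which 2 overlap as ACGTG on opposite strands. Lamb3 held 1, 31 bases before the start, and Notch4 held 1, 35 bases after it. Such a core is common: of 9663 promoters of tested genes 60.6% held one, of those of genes called higher 60.2% and of those called lower 60.4%. ACGTG alone was in 25.4% of all promoters, 27.3% of those higher and 25.0% of those lower. In the 40 promoters of known HIF targets either core was in 80.0% and ACGTG in 65.0%, while among genes outside the HIF, glycolysis, division, replication and inflammatory lists that rose at least 2-fold in both fits the shares were 58.0% and 27.3%. The E2F site of cell cycle genes, TTTCCCGC or TTTGGCGC on either strand, was in 2.96% of all promoters, 2.41% of those higher and 3.84% of those lower. A match only describes the letters of these windows.

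Dimmer genes that rose were Gipr, the receptor of the gut hormone GIP (-5.27, -5.38 and -6.69 against -0.91, -0.72 and -0.85), and Myoc, the secreted protein myocilin (-4.53, -5.52 and -3.72 against 0.97, 0.88 and 0.61). Jag2, a ligand of Notch receptors, measured -6.28, -6.66 and -6.79 against -2.36, -2.42 and -2.84 and was above background on only 1 normoxia array. Clmn, a calponin-like membrane protein gene, rose by 4.46 ± 0.43 and Lyz2, lysozyme, by 4.10 ± 0.37. Ceacam4 and Tnfrsf14, genes of cell surface receptors, rose on a probe not above background in normoxia. The bounds of at least 19.2-fold and at least 12.5-fold hold for that probe alone and not for the gene. Their second probes were above background on 2 and 3 normoxia arrays and gave smaller changes, log2 differences of 2.75 and 1.39. With the normexp correction the differences of Tmem74b, Tnfrsf14 and Jag2 shrank to 1.07, 0.90 and 1.02 and were not called, and that of Fhad1 to 1.80. That correction lost 28 calls among 242 called genes looked up by the naming rule, including Atxn7l1 (1.18), Kcnj8 (-0.47), Pparg (-0.43), Aldh1a2 (-0.50) and Syt12 (-0.72).

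In 4 further genes normoxia replicate 2 set much of the size. Amn, which encodes the membrane protein amnionless, measured -0.85, -3.74 and -0.70 in normoxia against 3.09, 2.95 and 2.87, and its difference of 4.74 ± 0.69 was 3.75 without replicate 2. Tmem255b gave 4.59 ± 0.74 and 3.52, C10h16orf89 5.26 ± 0.61 and 4.40, and Krt18, a simple-epithelium keratin, 4.93 ± 0.51 and 4.27. All 4 stayed called without that array. The 2 Krt18 probes, which moved by 4.93 and 4.50, are placed by the array design on different rn4 chromosomes (chr2:80044443-80044502 and chr10:66107092-66107151), so which copy gave the signal was not determined.

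The most even rise was in genes with small spread rather than large size. Dynlt3, a light chain of the dynein motor, measured 1.30, 1.31 and 1.27 in normoxia and 3.46, 3.39 and 3.46 in hypoxia (2.14 ± 0.08). Its second probe did not move (-0.10 ± 0.16). Hbs1l, a ribosome rescue factor, went from 1.52, 1.52 and 1.47 to 3.63, 3.59 and 3.56 (2.09 ± 0.08), but its second probe gave 0.60 ± 0.11. Nsun6, an RNA methyltransferase, rose by 2.26 ± 0.09 and Atxn7l1 by 2.92 ± 0.12, and neither had overlapping arrays.

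**Figure D2:**
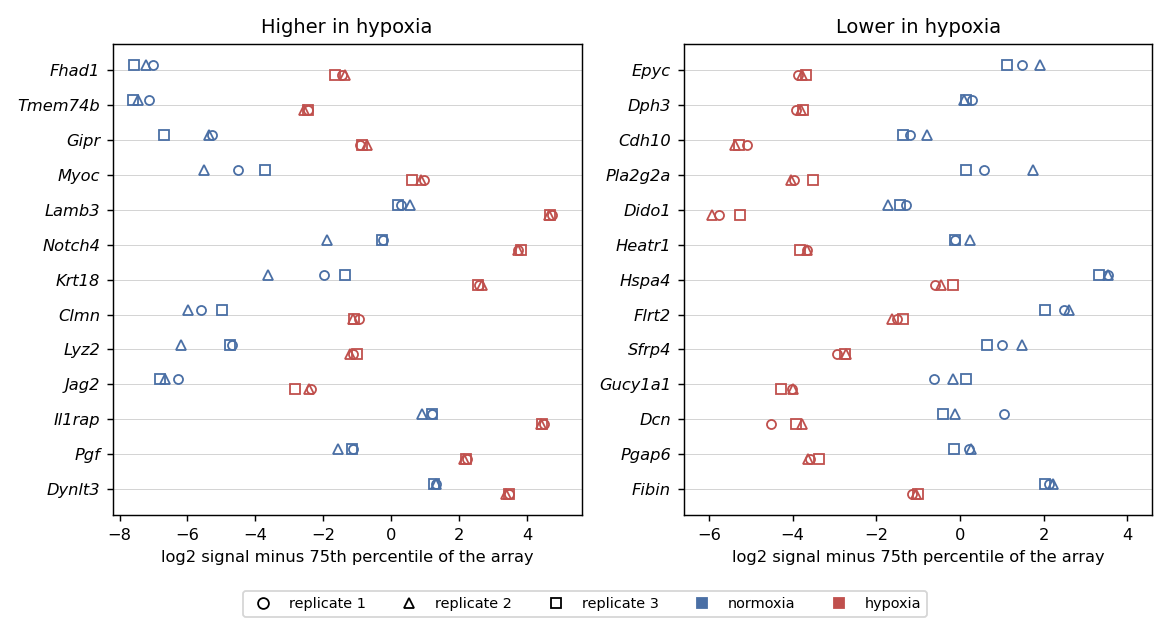
Log2 values (signal minus the array's 75th percentile, x axis) of genes with the most consistent changes, higher in hypoxia on the left and lower on the right, with a symbol per array: normoxia blue, hypoxia red, the shape marking the replicate. No normoxia array overlaps a hypoxia array in these genes on the probe shown. Lamb3 sits at 0.21 to 0.55 in normoxia and 4.64 to 4.72 in hypoxia, while Notch4 and Krt18 have a low normoxia replicate 2. The second probes of Dynlt3 and Hspa4, not shown, gave differences of -0.10 and 0.07, and that of Sfrp4 overlapped through hypoxia replicate 2.

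Among the genes lower in hypoxia, with members of the HIF, glycolysis, division, replication and inflammatory lists left out, a matrix gene had the widest gap. Epyc, epiphycan, a small leucine-rich proteoglycan, measured 1.48, 1.91 and 1.13 in normoxia and -3.88, -3.77 and -3.68 in hypoxia (-5.28 ± 0.22, adjusted p = 2.1e-06). Dcn, decorin, of the same family, went from 1.05, -0.11 and -0.41 to -4.52, -3.76 and -3.90 (-4.24 ± 0.46). Omd, osteomodulin, was not above background in hypoxia and at least 7.15-fold lower (adjusted p = 5.2e-05). Fibin, a secreted protein gene, fell evenly from 2.12, 2.23 and 2.02 to -1.13, -1.05 and -0.99, and Flrt2, an adhesion protein that binds guidance receptors, fell from 2.49, 2.60 and 2.04 to -1.50, -1.62 and -1.36.

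Several intracellular proteins were also among those with the widest gaps or smallest adjusted p. Dph3, needed for the diphthamide modification of elongation factor 2, measured 0.28, 0.09 and 0.16 in normoxia and -3.93, -3.80 and -3.74 in hypoxia (-4.00 ± 0.11, adjusted p = 7.4e-07). Heatr1, a factor of ribosomal RNA transcription and processing, went from -0.11, 0.23 and -0.12 to -3.64, -3.66 and -3.82 (-3.71 ± 0.12). Ciapin1, an iron-sulfur cluster assembly factor, fell by 3.30 ± 0.11, and Pgap6, a lipase acting on GPI anchors, by 3.63 ± 0.13. Dido1, a chromatin-bound protein gene, was not above background in hypoxia and at least 9.78-fold lower, and Lrrc7, a scaffold protein gene, at least 8.23-fold lower. Sanbr fell by 2.74 ± 0.09 and the hexose transporter Slc2a6 by 3.32 ± 0.12. For Dph3, Heatr1 and Ciapin1 the probe was above background on 2 of the 3 hypoxia arrays.

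Other genes of the same rule encode secreted or membrane proteins. Pla2g2a, a secreted phospholipase, went from 0.57, 1.74 and 0.15 to -3.96, -4.04 and -3.51. Sfrp4, a secreted Wnt inhibitor, went from 1.01, 1.49 and 0.65 to -2.95, -2.72 and -2.75. Its second probe went from 0.04, 0.59 and -0.19 to -3.32, 3.03 and -3.30 (-1.34 ± 1.48, adjusted p = 0.45). There hypoxia replicate 2 stood apart from the other hypoxia arrays, which repeated the fall. Cdh10, a cadherin, fell by 4.12 ± 0.24 with its 3 probes between -4.12 and -3.43, and Cklf, a chemokine-like factor, by 3.84 ± 0.29. Abcc4, an exporter of cyclic nucleotides, fell at least 6.39-fold on a probe not above background in hypoxia, a bound for that probe alone. Its second probe, above background on 2 hypoxia arrays, fell less, by a log2 difference of 1.92.

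Hspa4, a heat shock protein 110 co-chaperone, and Dynlt3 show how far a value can depend on the probe, so their probes are printed as the array files give them, with the design's rn4 positions. Both Hspa4 probes lie on the minus strand, the first at chr10:38705693-38705752 and the second at chr10:38748920-38748979. The first Dynlt3 probe spans chrX:25483247-25487612, more than its 60 bases, and the second lies at chrX:25488978-25489037, both on the plus strand.
Hspa4 probe 1: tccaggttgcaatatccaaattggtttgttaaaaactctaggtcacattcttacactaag
Hspa4 probe 2: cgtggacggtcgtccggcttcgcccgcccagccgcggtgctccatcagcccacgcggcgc
Dynlt3 probe 1: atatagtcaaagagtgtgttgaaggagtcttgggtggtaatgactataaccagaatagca
Dynlt3 probe 2: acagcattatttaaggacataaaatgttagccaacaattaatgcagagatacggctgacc
Hspa4 probe 1 went from 3.55, 3.53 and 3.32 to -0.60, -0.45 and -0.17 (-3.87 ± 0.14), whereas probe 2 gave 0.07 ± 0.13 (adjusted p = 0.64). Dynlt3 probe 1 gave 2.14 ± 0.08 and probe 2 gave -0.10 ± 0.16 (adjusted p = 0.58). Both probes of each gene were above background on all 6 arrays, so the gene's printed difference is that of 1 probe. Over the 3604 genes with at least 2 kept probes, fitted one by one with 64.3% of all probes called, 1736 had every probe called in one direction, 973 had some called in one direction, 736 had none called and 159 had probes called in opposite directions. The channel gene Clcn4 spanned the most among those with a symbol, from -3.80 to 1.23, and Kalrn, a guanine nucleotide exchange factor, ran from -3.89 to 0.30 over its 4 probes. Where a named gene's further probe differed by more than 0.5 times its printed difference, the further value stands beside it.

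The next paragraphs take fixed gene classes, whose members were looked up on the array. Each count is to be read beside the share of all genes called, 35.3% higher and 28.9% lower, and each median beside that of all genes, 0.10, or 0.04 against replicate 3. A member could be tested only where all 3 arrays of some group, the quercetin group included, read a probe of it well above background. A member kept through the normoxia or the hypoxia arrays alone is more likely to differ between them, though not all did, such as Muc1. The counts therefore cover the members tested and not the class as a whole.

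Contractile and cytoskeletal genes of smooth muscle were mostly higher: 23 of 40 rose and 4 fell. Their median was 0.49, 0.51 against replicate 3, 0.29 against genes of like mean signal and -0.02 with spike-in scaling. Des, the muscle intermediate filament desmin, went from -4.05, -4.22 and -3.62 to -0.54, -0.59 and -0.61 (3.39 ± 0.16). Tagln, the actin-binding protein SM22, measured 6.97, 7.58 and 7.13 against 8.30, 8.21 and 8.24 (1.03 ± 0.15), and with quantile normalization it was not called (0.36). The actin regulator Cnn1 rose by 1.33 ± 0.13, the smooth muscle myosin heavy chain Myh11 by 0.83 ± 0.16, the filament protein Synm by 1.55 ± 0.14 and Vim by 1.27 ± 0.10. Pdlim3 and Filip1l, actin-associated proteins, fell by 0.90 ± 0.16 (its second probe lay at -0.01) and 1.31 ± 0.27. Among the regulators of these genes the coactivator Myocd rose by 0.95 ± 0.15, its partner Srf fell by 0.94 ± 0.08, Hand2 fell by 1.40 ± 0.09, Snai1 rose by 2.00 ± 0.24, and Klf4 was not called (-0.57 ± 0.33, adjusted p = 0.15).

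Keratins and other intermediate filaments, of which 20 of 48 could be tested, had 13 members higher and 2 lower (median 0.89, 0.57 against replicate 3, 0.64 without normoxia replicate 2, 0.33 with the normexp correction and 0.39 with spike-in scaling). Krt7 measured 1.76, 2.24 and 2.32 in normoxia and 5.34, 5.04 and 5.31 in hypoxia (3.12 ± 0.17), and Krt8 rose by 2.15 ± 0.23 at low signal. These keratins are known from simple epithelia. Of the other epithelial markers Epcam, Cdh1 and Krt19 were not above background on any of the 6 arrays, Scgb1a1 and Cldn4 were on all 6, Muc1 on 5 and Sftpc on 2, and Scgb1a1, Cldn4 and Muc1, the 3 of them tested, were not called. The part of epithelial cells was not tested. The nuclear lamin Lmnb2 fell by 2.11 ± 0.15.

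Receptors and cyclases that set vessel tone leaned the other way. Of 47 tested of 65 on the array, 22 fell and 11 rose, with a median of -0.48 and of -0.60 against replicate 3. The median was smaller, -0.22, with the normexp correction and -0.27 over probes with signal on all 9 arrays. With spike-in scaling it was -0.98. The subunits of soluble guanylate cyclase, the receptor of nitric oxide, both fell: Gucy1a1 from -0.62, -0.16 and 0.15 to -4.00, -3.98 and -4.28 (-3.88 ± 0.25, second probe -2.83), and Gucy1b1 from -1.42, -1.31 and -0.94 to -3.86, -3.77 and -3.71 (-2.56 ± 0.15). Npr1, the natriuretic peptide receptor that makes cyclic GMP at the membrane, fell by 1.53 ± 0.14. The angiotensin receptor Agtr1a went from 1.95, 2.31 and 1.99 to 0.64, 0.63 and 0.73, and the serotonin receptor Htr2a fell by 1.37 ± 0.13. Ednra, the endothelin A receptor, fell by 1.99 ± 0.16 on its brighter probe and gave -0.10 ± 0.14 (adjusted p = 0.55) on the other. Ramp1 and Ramp3, which steer calcitonin-type receptors, rose: Ramp1 from -0.18, -1.59 and 0.61 to 2.99, 2.97 and 3.03, Ramp3 from -2.02, -1.11 and -2.16 to 0.73, 0.55 and 0.55. The prostacyclin receptor Ptgir was not called (0.65 ± 0.33, adjusted p = 0.12), and Htr1b was above background on 2 normoxia and 0 hypoxia arrays and could not be tested.

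Enzymes that make and break cyclic nucleotides held 7 higher and 14 lower of 36 tested (median -0.15, and -0.23 against replicate 3). Pkia, an inhibitor of protein kinase A, went from 1.10, 1.24 and 1.37 to -1.41, -1.42 and -1.60, and the phosphodiesterase Pde4d fell by 1.62 ± 0.09, with 3 further probes from -2.36 to -0.62. Adenylyl cyclase 5, Adcy5, rose from -0.66, -1.58 and -0.78 to 1.22, 1.20 and 1.34. Pde5a, which degrades cyclic GMP, fell by 0.81 ± 0.20 (adjusted p = 0.0075) and lost its call with slide as a block, at a like difference of -0.86, and with the normexp correction, and its second probe gave -0.39. The guanine nucleotide exchange factors Arhgef39 and Arhgef19 rose by 3.23 ± 0.23 and 2.51 ± 0.13, while Rgs4, which shortens signalling by G proteins, went from 1.82, 2.34 and 2.20 to -1.25, -0.96 and -0.98 (second probe -1.75).

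Of 87 potassium channel genes only 33 could be tested, with 15 higher and 6 lower (median 0.38, 0.16 against replicate 3 and -0.13 with spike-in scaling). The median was 0.03 with the normexp correction and 0.68 over probes with signal on all 9 arrays. The pore Kcnk6 rose from 2.11, 1.88 and 2.24 to 3.97, 3.98 and 3.97, and the stretch-gated Kcnk2 fell from 1.77, 2.44 and 1.82 to -1.62, -1.49 and -1.15. Kcnj8, the pore of the ATP-sensitive channel of vessels, was not above background in hypoxia and at least 2.09-fold lower (adjusted p = 4.0e-05). Kcnk3, the acid-sensitive channel tied to heritable pulmonary hypertension, was not called (-0.12 ± 0.55, adjusted p = 0.86). Its value was -1.06 within the slide and ran from -0.74 without hypoxia replicate 2 to 0.34 without normoxia replicate 3. Kcna5 was not above background on any of the 6 arrays, Kcna2 on 2 normoxia arrays only and Kcnma1 on 1.

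Calcium channels, stores and pumps, of which 18 of 45 tested rose and 13 fell, had a median that changed with the comparison. The median of 0.39 was -0.02 against replicate 3 alone, -0.02 with the normexp correction and -0.12 with spike-in scaling. For replicate 3, the slide and the single normoxia array cannot be told apart. Cacna1h, a T-type channel, went from -4.43, -4.65 and -3.96 to -2.49, -2.50 and -2.45, the cation channel Trpm4 rose by 1.66 ± 0.09, and Saraf, which restrains store-operated entry, rose by 1.15 ± 0.08. The store pump Atp2a2 fell from 5.30, 5.41 and 5.23 to 4.43, 4.33 and 4.40 (further probes -2.27 and -0.98), the membrane pump Atp2b1 by 1.02 ± 0.10, the store sensor Stim2 by 1.27 ± 0.12 and the L-type channel Cacna1c by 0.51 ± 0.13 (second probe -0.97). Of the channels linked to hypoxic vasoconstriction, Trpc1 rose by 1.17 ± 0.20. Trpc6 measured -2.89, -3.10 and -2.03 against -2.13, -1.67 and -1.69: its arrays overlap, through normoxia replicate 3, and its difference of 0.84 ± 0.26 (adjusted p = 0.021) was 0.20 within the slide (adjusted p = 0.46) and not called without normoxia replicate 1 or 2 or hypoxia replicate 2 or 3 (0.63 to 0.77).

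**Figure D3:**
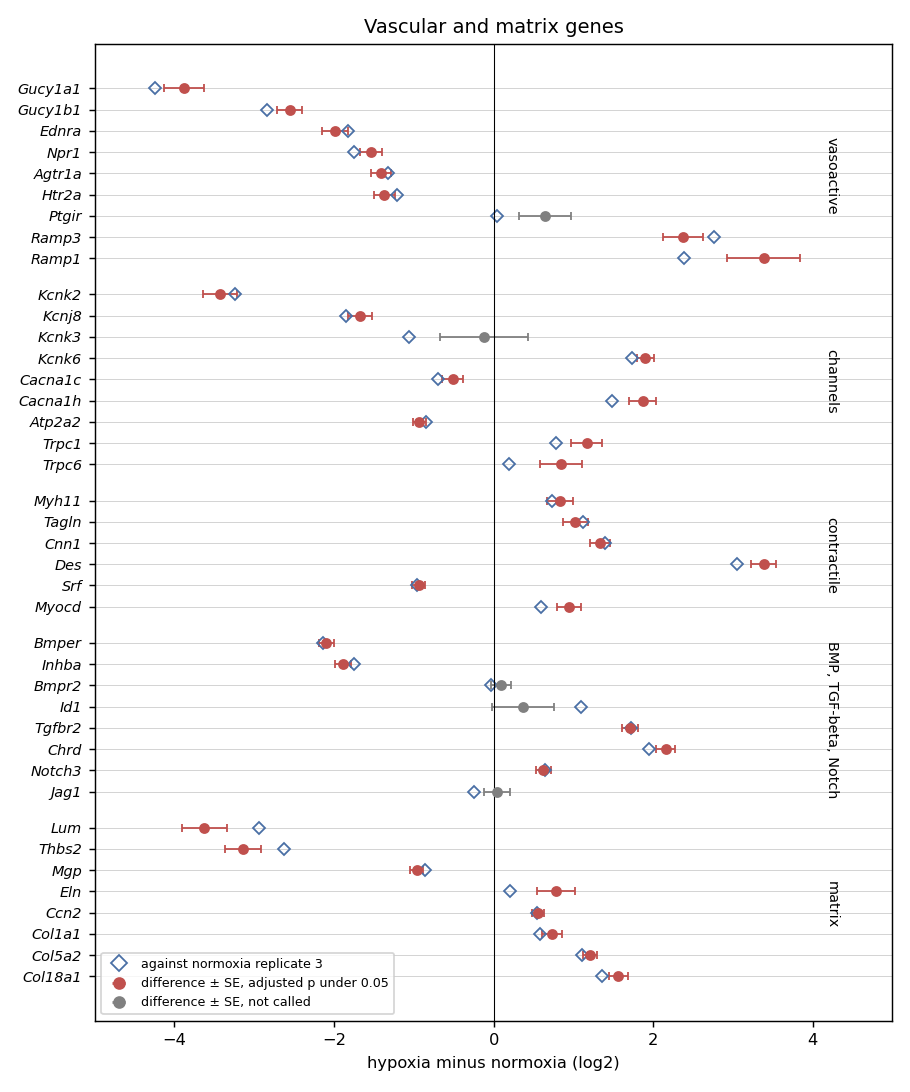
Difference of hypoxia from normoxia (log2, x axis) for vascular and matrix genes: circles give the fitted difference over 3 arrays a group with its standard error, red where the adjusted p is under 0.05 and grey where not, and diamonds give the difference from normoxia replicate 3 alone. Gucy1a1 lies at -3.88 and Ramp1 at 3.39, and the diamonds of Trpc6 and Eln, both at 0.20, lie well below their circles.

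Genes of the BMP and TGF-beta pathway changed in both directions, 25 higher and 15 lower of 55 (median 0.37, 0.24 against replicate 3 and -0.13 with spike-in scaling). The receptor Tgfbr2 rose from -2.69, -2.59 and -2.66 to -0.85, -1.04 and -0.92. Chrd, the BMP antagonist chordin, rose from -0.32, -0.28 and 0.02 to 2.01, 1.90 and 1.98, while Bmper, another BMP-binding protein, fell from -0.29, -0.52 and -0.34 to -2.37, -2.51 and -2.57. The activin subunit Inhba fell by 1.89 ± 0.10, the ligand Gdf11 by 2.29 ± 0.13 and Tgfb1 by 0.41 ± 0.11. Bmpr2, the receptor most often mutated in heritable pulmonary hypertension, was not called (0.09 ± 0.13, adjusted p = 0.55). Id1 and Id3, targets of BMP signalling, were not called either (0.37 ± 0.39 and 0.45 ± 0.23). Id1 measured 1.23, 2.56 and 0.82 against 1.87, 1.87 and 2.00, and without normoxia replicate 2, its highest array, both genes were called (0.89 and 0.72).

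Wnt and Notch genes counted 19 higher and 11 lower of 50 tested, with a median of 0.27 that was 0.07 against replicate 3 and -0.23 with spike-in scaling. Rspo3, which amplifies Wnt signals, fell from 1.16, 0.44 and 1.00 to -2.80, -2.70 and -2.89. The secreted Wnt inhibitors Sfrp2 and Frzb fell with Sfrp4, by 3.26 ± 0.26 and 2.40 ± 0.19, and the further Sfrp2 probes gave -6.04 and -5.69. Notch3, the Notch receptor of arterial muscle, rose by 0.62 ± 0.10, and the ligand Jag1 was not called (0.05 ± 0.16).

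Growth factors and their receptors held 25 higher and 15 lower of 57. Igf2 rose from -2.23, -2.42 and -2.06 to 0.21, 0.03 and -0.02, and the binding protein Igfbp2 by 2.91 ± 0.26, whereas Igfbp5 was not above background in hypoxia and at least 5.35-fold lower (adjusted p = 2.5e-05). Igf1 was not called (-0.10 ± 0.28, further probes from -0.16 to 0.31), nor was Pdgfra (0.09 ± 0.08), Pdgfrb fell by 0.37 ± 0.12 and the neurotrophin Bdnf by 1.13 ± 0.08. Among guidance genes, with 13 higher and 18 lower of 50, the ephrin receptors Epha3 and Epha4 fell by 3.01 ± 0.19 and 2.31 ± 0.20, the semaphorin Sema3e by 1.99 ± 0.12, and the ligand Efna1 rose by 1.47 ± 0.16. The immediate early genes Myc, Fos and Egr2 fell by 1.89 ± 0.17, 1.85 ± 0.18 and 1.54 ± 0.13 in a list of 47 with 13 higher and 13 lower.

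Collagen chains were mostly higher. Of 28 tested of 37 on the array, 22 rose and 2 fell, 20 and 2 of them in both fits, with a median of 0.97 that was 0.68 against replicate 3, 0.88 without normoxia replicate 2 and 0.46 with spike-in scaling. Col5a2, a chain of fibril-forming type V collagen, went from 7.96, 7.78 and 8.02 to 9.17, 9.10 and 9.12, and Col18a1, a basement membrane collagen, from 3.38, 3.33 and 3.66 to 5.12, 4.97 and 4.98. Col1a1, the main fibrillar chain, rose by 0.73 ± 0.12 and was not called with quantile normalization (0.17) or spike-in scaling (0.23). The type IV chains Col4a3 and Col4a5 rose by 2.78 ± 0.25 and 1.49 ± 0.13, the latter by 0.51 on its second probe, while Col8a1 and Col11a2 fell by 0.87 ± 0.14 and 1.21 ± 0.31. Collagen processing enzymes followed with 16 higher and 1 lower of 28 (median 0.46, 0.265 against genes of like signal and -0.05 with spike-in scaling). The hydroxylases Plod1 and Plod2 rose by 1.71 ± 0.14 and 1.31 ± 0.11 and the procollagen protease Bmp1 by 1.09 ± 0.10 (further probes 0.43 and 1.06), and the crosslinking oxidase Loxl1 fell by 0.81 ± 0.12.

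Other matrix genes did not share that direction: 19 of 44 rose and 17 fell. Lum, lumican, fell from 2.36, 2.76 and 1.53 to -1.39, -1.39 and -1.46, and Thbs2, thrombospondin 2, gave -3.14 ± 0.22 on its brighter and -1.02 on its second probe. Thbs4 rose by 1.53 ± 0.10 and the calcification inhibitor Mgp fell by 0.97 ± 0.08. Eln, the elastin gene, measured 2.37, 2.21 and 3.17 against 3.48, 3.31 and 3.31, which is 0.78 ± 0.24 (adjusted p = 0.019) over all arrays and 0.20 within the slide (adjusted p = 0.40), and it was not called without normoxia replicate 1 (0.68) or 2 (0.60) or hypoxia replicate 1 (0.73). Ccn2, a TGF-beta responsive matrix protein, rose by 0.56 ± 0.08 and turned to -0.02 with quantile normalization. Proteases and inhibitors counted 18 higher and 21 lower of 60, with Adamts1 lower by 2.86 ± 0.25 and Mmp16 by 2.23 ± 0.12 (by 0.80 on its second probe). Among integrins, laminins and cadherins 15 of 40 rose and 11 fell, and Itga7, a laminin receptor of muscle, rose by 2.47 ± 0.17.

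Genes for cytosolic ribosomal proteins were higher almost throughout: 84 of 89 rose and 0 fell, 74 of them in both fits. Their changes were small, with a median of 0.54 and of 0.57 against replicate 3. Rpl36 and Rps27 rose by 0.73 ± 0.11 and 0.78 ± 0.12. These genes are among the brightest on the array, 80 of the 89 lying in the top 5% by mean signal. In that top 5% the median difference was 0.48 with the ribosomal genes left out, and 65.1% of its other genes rose. Set against genes of like signal, a comparison chosen after seeing the data, the ribosomal median was 0.05, and it was 0.00 with quantile normalization, where Rpl36 and Rps27 were not called, and 0.04 with spike-in scaling.

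**Figure D4:**
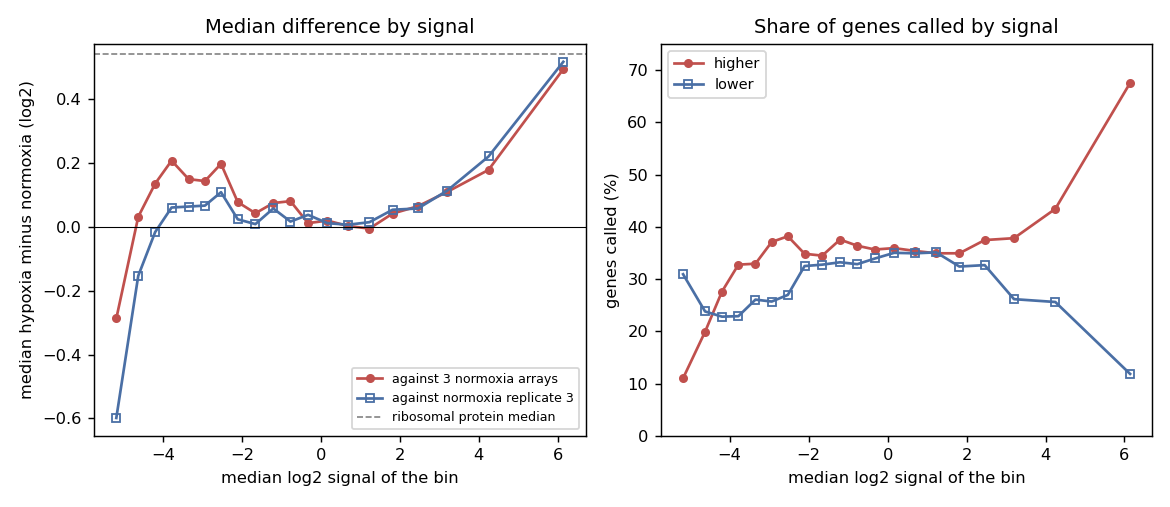
Genes were ordered by their mean log2 signal and divided into 20 bins (x axis, median of the bin). The left panel gives each bin's median difference (log2) against the 3 normoxia arrays and against normoxia replicate 3, with the ribosomal protein median of 0.54 dashed, and the right panel the share of genes called higher or lower: the brightest bin stands at 0.50 with 67.5% higher, the dimmest at -0.29 with 30.9% lower.

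Factors that build ribosomes went down. Of 52 ribosome biogenesis genes 32 fell and 6 rose, 25 and 3 in both fits, with a median of -0.50 that was -0.44 against replicate 3, -0.61 against genes of like signal and -1.01 with spike-in scaling. Nolc1, a nucleolar phosphoprotein, went from 4.24, 4.19 and 4.23 to 2.68, 2.59 and 2.68, and its other probes gave -1.58 and -1.23. Rrp9 and Noc4l, of the small subunit processome, fell by 1.65 ± 0.11 and 1.49 ± 0.08 and Rrs1, of the large subunit, by 1.38 ± 0.09, while the nucleolar GTPase Gnl2 rose from 3.67, 3.70 and 3.63 to 4.45, 4.51 and 4.47 and Wdr75 by 0.58 ± 0.09. Translation factors held 26 higher and 9 lower of 60 (median 0.27, 0.05 against genes of like signal and -0.24 with spike-in scaling). Of them 18 lay in the brightest bin. The cap-binding repressor Eif4ebp1 was higher by 0.97 ± 0.08. The scaffolds Eif4g1 and Eif4g3 were lower by 0.91 ± 0.08 and 1.35 ± 0.09 (second Eif4g3 probe -2.49). Of 21 aminoacyl-tRNA synthetases 4 rose, such as Qars1 by 0.95 ± 0.11, and 7 fell, such as Wars1 by 1.83 ± 0.13 and Yars1 by 1.24 ± 0.10.

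Mitochondrial genes had medians that moved with the scaling. Of 70 mitochondrial ribosomal proteins 21 rose and 32 fell (median -0.14, -0.03 against replicate 3, -0.33 against genes of like signal and -0.64 with spike-in scaling), from Mrps11 at -2.03 ± 0.14 and Mrps21 at -1.27 ± 0.10 to Mrpl45 at 1.09 ± 0.10 and Mrpl1 at 1.14 ± 0.11. Of 82 respiratory chain and ATP synthase genes 15 rose and 25 fell, with a median of -0.04 that was 0.10 against replicate 3, -0.43 against genes of like signal, -0.32 with quantile normalization and -0.55 with spike-in scaling. Ndufaf4, an assembly factor of complex I, went from 2.31, 2.43 and 2.14 to -0.46, -0.30 and -0.19. Cox4i2, the low-oxygen isoform of a cytochrome oxidase subunit, rose by 1.64 ± 0.25, Sdha of complex II by 0.52 ± 0.07, and Cyc1 of complex III fell by 0.81 ± 0.08. The tricarboxylic acid cycle list had 7 higher and 6 lower of 27.

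Proteins of the endoplasmic reticulum were mostly higher, 27 of 40 against 9 lower, and all 27 rose in both fits. Their median was 0.51, 0.66 against replicate 3, 0.27 against genes of like signal and 0.01 with spike-in scaling. P4hb, the disulfide isomerase that is also a subunit of collagen prolyl hydroxylase, went from 5.57, 5.50 and 5.64 to 7.52, 7.31 and 7.41, and Derl1, of the degradation channel, from 2.67, 2.29 and 2.74 to 5.09, 5.01 and 4.98. The chaperones Hspa5, Hsp90b1 and Dnajb9 rose by 1.26 ± 0.14, 1.17 ± 0.09 and 1.43 ± 0.11 and the stress factor Ddit3 by 1.21 ± 0.17, while Srp14 and Sdf2l1 fell by 1.38 ± 0.13 and 1.13 ± 0.12. Serine, glycine and one-carbon genes and other targets of the amino acid stress factor ATF4 leaned lower, 15 of 37 against 7 higher (median -0.47, and -0.45 against replicate 3). Cth, which makes cysteine, went from -0.96, -0.02 and -0.96 to -3.49, -3.33 and -3.65, the amino acid transporter Slc7a5 fell by 1.78 ± 0.15 and Shmt1 by 1.40 ± 0.11, and the mitochondrial folate enzyme Mthfd1l rose by 1.69 ± 0.13. Asns and Atf3, both classic ATF4 targets, were not called (-0.39 ± 0.26 and -0.22 ± 0.31).

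Lysosomal enzymes and the lysosomal proton pump were lower: 31 of 55 fell and 12 rose, with a median of -0.31 and of -0.36 against replicate 3. Gusb, beta-glucuronidase, went from -0.56, -0.27 and -0.85 to -3.20, -3.06 and -3.03, and the collagen-degrading protease Ctsk from 2.46, 2.75 and 2.14 to 0.52, 0.61 and 0.66. Ctsb fell by 1.02 ± 0.08 and Ppt1 by 0.96 ± 0.08. Autophagy genes had 17 higher and 6 lower of 34 (median 0.31, 0.09 against genes of like signal and -0.19 with spike-in scaling): Atg13, of the starting kinase complex, rose from 0.77, 0.85 and 0.79 to 2.35, 2.25 and 2.24, Wipi1 and Calcoco1 by 1.22 ± 0.10 and 1.05 ± 0.10, and Becn1 fell by 0.59 ± 0.13. Proteasome subunits counted 12 higher and 15 lower of 42, with Psmd1 and Psmc5 lower by 1.26 ± 0.08 and 1.18 ± 0.10. Of 37 heat shock genes 10 rose, Hspb1 by 1.40 ± 0.20, and 13 fell, the glucocorticoid-induced co-chaperone Fkbp5 by 2.42 ± 0.16.

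Lipid genes split within their pathways. Cholesterol synthesis had 5 higher and 11 lower of 25 (median -0.12, and 1 and 5 in both fits). Acat2, at the start of the pathway, fell from 2.39, 2.82 and 2.18 to -0.05, -0.03 and 0.01, and Hmgcs1 was not called (0.15 ± 0.09, second probe 0.72). Insig1, a brake on the pathway, was 4.85, 2.90 and 4.94 against 6.41, 6.44 and 6.35, and its call (2.17 ± 0.58) was lost with slide as a block (1.46, adjusted p = 0.18). Fasn, fatty acid synthase, fell from 3.67, 3.49 and 3.70 to 1.78, 1.66 and 1.74, Acaca by 2.18 ± 0.09 on its brighter probe against a rise of 0.47 on the other, and Pparg was at least 1.82-fold lower. G0s2, an inhibitor of fat breakdown, rose from 3.37, 2.41 and 3.73 to 6.68, 6.69 and 6.78, and Cpt1a, the gate of fatty acid oxidation, fell by 3.28 ± 0.44.

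The clock genes were mostly higher or not called, 10 higher and 2 lower of 20 (median 0.46, 0.42 against replicate 3 and -0.04 with spike-in scaling). Per1, a repressor of the clock, went from -2.31, -2.50 and -2.04 to -0.55, -0.65 and -0.63 and the clock output factor Dbp from 2.47, 1.92 and 2.48 to 3.61, 3.59 and 3.59. Per3, Cry2 and Per2 rose by 0.86 ± 0.11, 0.82 ± 0.11 and 0.65 ± 0.13, and Cry1 fell by 0.77 ± 0.14. Nr1d1, the nuclear receptor REV-ERB alpha, rose by 2.34 ± 0.41, or 1.89 without normoxia replicate 2, which was its lowest array. The arrays' harvest times are not given in the sources used here.

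Caveolae and clathrin genes had 15 higher and 3 lower of 25 (median 0.40, 0.30 against replicate 3 and -0.10 with spike-in scaling). Cav1, which coats caveolae, went from -0.17, 0.19 and 0.03 to 1.33, 1.13 and 1.20 with 2 further probes at 1.24 and 1.31, and Cavin3 and Ap2a2 rose by 0.85 ± 0.08 and 1.20 ± 0.09. Ap2b1 rose by 1.62 on 1 probe and by 1.67 on another and gave -0.14 and -0.22 on 2 more, and Ehd4 fell by 1.47 ± 0.24. Of 29 aldehyde dehydrogenases and retinoid enzymes 15 rose and 6 fell (median 0.43, and -0.07 with spike-in scaling): the retinal reductase Dhrs3 rose from 0.61, 0.69 and 1.03 to 3.60, 3.48 and 3.51 and the retinol carrier Rbp4 by 1.51 ± 0.15, and Aldh1a2, which makes retinoic acid, was at least 2.17-fold lower. ABC transporters had 4 higher and 12 lower of 30 (median -0.24, with 0 and 10 in both fits), among them the exporters Abcg2, lower by 1.80 ± 0.12, and Abcb1b, by 1.11 ± 0.09. NRF2 and antioxidant genes counted 8 higher and 18 lower of 51 (median -0.03, and -0.28 against genes of like signal). Nqo1 and Gsta1 were lower by 1.29 ± 0.10 and 1.60 ± 0.19. Txnip, which binds thioredoxin and restrains glucose uptake, rose by 2.35 ± 0.30, and its relative Arrdc4 was not called (-0.59 ± 0.31, further probes -0.59 and 1.44).

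**Figure D5:**
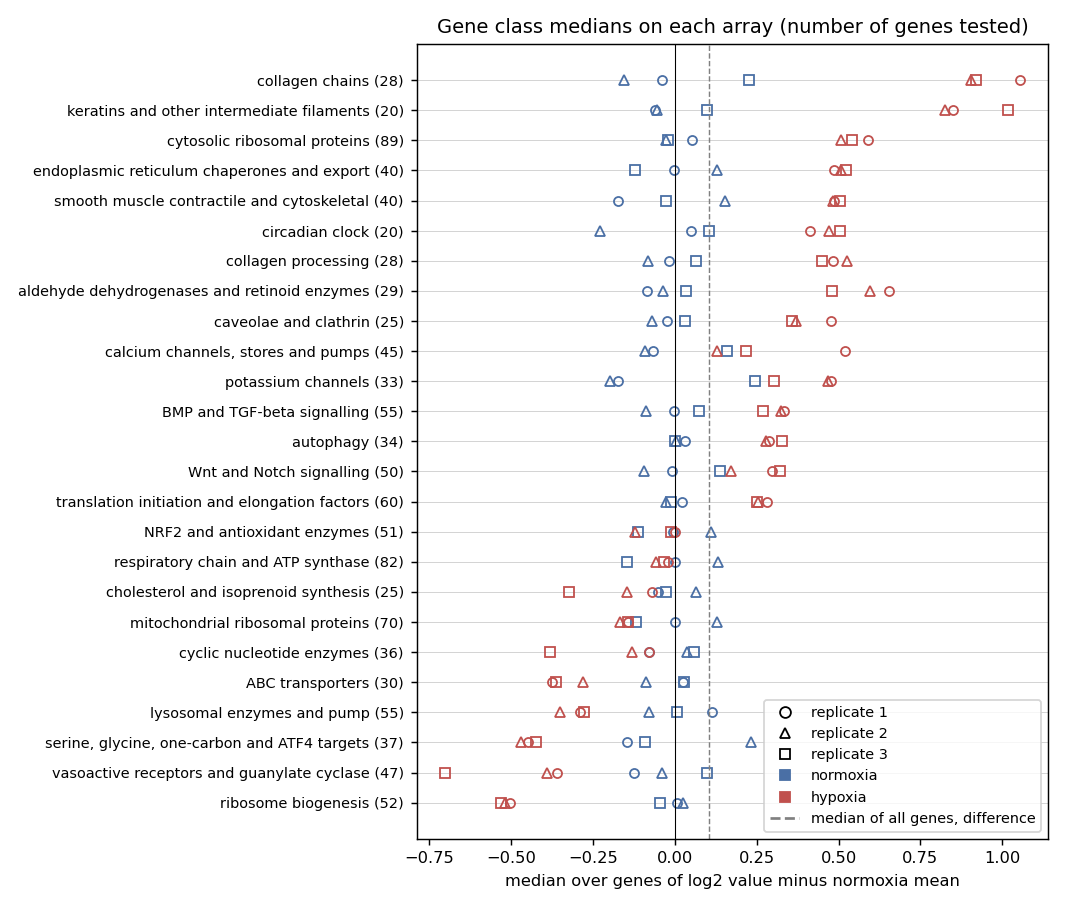
Median over the tested genes of each class of the log2 value minus the normoxia mean, for each array (x axis, log2; blue normoxia, red hypoxia, shapes mark replicates), with the number of genes tested in brackets and the median difference of all genes, 0.10, dashed. Collagen chains stand at 0.91 to 1.05 in hypoxia and ribosome biogenesis at -0.53 to -0.50, while for calcium and for Wnt and Notch genes normoxia replicate 3 lies among or near the hypoxia arrays.

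The other 30 of the 55 lists had medians between -0.28 and 0.23 and shares from 18.8% to 48.0% higher and from 22.2% to 43.3% lower. Those without counts above are described by single members. In the nucleus the variant histone H2ax fell by 2.58 ± 0.23 and H2az1 by 1.19 ± 0.11, the linker histone H1f0 rose by 1.04 ± 0.08, the arginine methyltransferase Prmt3 fell by 2.34 ± 0.12 and the deacylase Sirt7 by 1.83 ± 0.12. The RNA-binding splicing regulator Khdrbs3 fell by 2.51 ± 0.13 and Prpf18 rose by 1.68 ± 0.09. The checkpoint kinase Chek2 and the repair scaffold Xrcc1 rose by 2.02 ± 0.12 and 1.39 ± 0.10, the death promoter Bad fell by 1.28 ± 0.08 and the stress gene Gadd45b rose by 2.10 ± 0.23. Of immune genes the interferon-induced Ifit2 and Oasl2 fell (-3.11 ± 0.22 and -3.25 ± 0.32), the complement protease C1s fell by 1.67 ± 0.15 and the anticoagulant receptor Thbd by 3.08 ± 0.35, and tapasin, Tapbp, and clusterin, Clu, rose by 1.91 ± 0.11 and 1.27 ± 0.09. The iron exporter Slc40a1 fell by 1.88 ± 0.11 (0.60 on its second probe), the haem enzyme Cpox by 2.02 ± 0.11 and the folate carrier Slc19a1 by 2.08 ± 0.11. The gap junction protein Gja1 rose by 1.23 ± 0.12, the cold-induced Rbm3 by 0.63 ± 0.11 and the metallothionein Mt1 by 0.61 ± 0.22 (not called with quantile normalization, at 0.08, nor without normoxia replicate 2 or 3 or any one hypoxia array, at 0.48 to 0.64), while Cirbp was not called (-0.13 ± 0.23).

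Trafficking and glycan genes also moved singly. The microtubule destabiliser Stmn1 fell by 2.13 ± 0.12, the hedgehog effector Gli3 by 1.73 ± 0.10 and the fusion protein Snap29 by 2.15 ± 0.10, and the ciliary coat protein Bbs2 rose by 1.38 ± 0.08. Syt12, a synaptotagmin, was not above background in hypoxia and at least 3.145-fold lower. Ndst1 and Mgat1, which shape heparan sulfate and N-glycans, fell by 2.26 ± 0.11 and 1.77 ± 0.10, and Gfpt1, which makes the sugar nucleotide precursor, rose by 1.37 ± 0.08. The homeobox gene Hoxb7 fell by 1.33 ± 0.10.

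Genes seen in only 1 group were mostly seen in normoxia. A gene counted if its probe was well above background on all 3 arrays of a group and no probe of it was on any array of the other group. Of 22102 tested genes, 608 met this in normoxia alone, 205 with a symbol, and 6 in hypoxia alone, 4 with a symbol. Beside this, 53% to 66.6% of probes were well above background on the hypoxia arrays and 65.1% to 74.3% on the normoxia arrays, and on the shared slide hypoxia replicate 1 lay above normoxia replicate 3. With the normexp correction Arrdc2, Rbm11, Omd and Igfbp5 were not called (0.45, 0.38, -1.14 and -1.03). The 4 are Fhad1, Tmem74b, Arrdc2, an arrestin-domain protein gene, at least 7.13-fold higher (adjusted p = 0.0010), and the RNA-binding protein gene Rbm11, at least 4.46-fold higher (adjusted p = 1.9e-04). Outside the inflammatory genes the largest bounds among those lower belonged to Dido1, Lrrc7, Omd, Igfbp5 and Rnf32, a ring finger protein gene at least 5.23-fold lower (adjusted p = 1.1e-05).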

How the data were processed

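Total RNA of 9 samples was hybridised in 1 colour to Agilent rat arrays. Per the file headers, Feature Extraction 10.7.3.1 gave background-subtracted spot intensities. The authors' deposited table of log2 values, made in a way the labels leave unstated, served as an alternative. Its results nearly equalled those of quantile normalization (13581 against 13595 calls), so these settings are not separate checks. The labels name a microRNA labelling kit, while the files hold messenger RNA probes.

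From the intensities, 1639 control spots were left out and 71 to 148 outlier spots per array of the 6 were set missing. The log2 signal minus the 75th percentile of the array was averaged by probe. A gene was its brightest kept probe. Names came through accessions (18360 probes), symbols (3000) or synonyms (390) of a RefSeq table of assembly GRCr8, and 19262 probes kept the file's name. limma 3.58.1 (R 4.3.3) fitted 3 group means on all 9 arrays, with 6 residual and 2.30 prior degrees of freedom, and hypoxia minus normoxia was adjusted by Benjamini-Hochberg over all genes. An "at least N-fold" value sets the bright group's mean over the dim group's, each dim array floored at its lowest signal well above background. Tested on simulated data (22102 genes), the fit found 32.8% of 1.5-fold, 61.2% of 2-fold and 86.4% of 4-fold changes. There 7.69% of its calls were false. Whether these rates hold on the measured arrays, where 64.2% of genes were called, was not tested. The number of arrays limits the precision.

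The comparison, the gene lists and the alternatives were chosen with earlier results of these data known. The naming rule took the 15 genes each way with the widest gap, the 8 each way with the smallest adjusted p and a 2-fold change, up to 5 members a list with the smallest adjusted p and 3 the other way, fixed vascular and label genes, the 8 largest one-sided bounds each way, and the 3 promoters shown. The text names part of these. Tests were two-sided.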

Additional observations from a re-analysis of the deposited data

How the results depend on the processing

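The count of genes called was 14190. It was 6719 with normexp background correction (3548 higher, 3171 lower) and between 9746 and 14078 under the other whole-array settings, with 5031 higher when slide was a block. With spike-in scaling 2664 were higher and 10761 lower, so 19.8% of calls were higher against 55.0%, and 63 genes were called in the opposite direction. With quantile normalization the higher share was 50.3%. Leaving out each array in turn gave 12328 to 14407 calls. Deviations of same-numbered normoxia and hypoxia arrays from their group means correlated at -0.01, -0.03 and -0.12. With so few arrays this cannot tell whether the replicate numbers pair cultures or animals. A replicate block gave 13197 calls. Calls held in both fits numbered 9490, and 6053 with the normexp correction in place of the main one. One-sided genes higher were 6, or 11 when 2 of 3 bright arrays sufficed. The promoter share of genes called higher, and of those called lower, less that of all genes, was -0.46 and -0.27 percentage points for either core, and 1.84 and -0.43 for ACGTG alone.

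Class medians that changed sign by more than the spread between arrays were, with spike-in scaling, translation factors (-0.24), autophagy (-0.19), potassium channels (-0.13), calcium genes (-0.12), contractile genes (-0.016), BMP and TGF-beta (-0.13), Wnt and Notch (-0.23), collagen processing (-0.049), clock (-0.041), retinoid enzymes (-0.069) and caveolae (-0.10). Ribosomal proteins came to -0.001 with quantile normalization and -0.004 in the authors' value table, and calcium genes to -0.02 both with the normexp correction and with slide as a block. Medians near 0 also crossed it: the respiratory chain, at -0.04, was 0.104 with slide as a block, 0.004 with the normexp correction and 0.029 without normoxia replicate 2, and NRF2 genes, at -0.03, were 0.021 with the mean of all probes and without hypoxia replicate 2. Among genes, Or9k7 turned to -0.012 with slide as a block, Ccn2 to -0.018 with quantile normalization and -0.017 in the authors' table, and Hmgcs1, Bmpr2 and Pdgfra, not called before, to -0.36, -0.41 and -0.41, called, with spike-in scaling. Of genes without a call in either setting, Igf1 (0.39), Jag1 (-0.25), Cirbp (0.07) and Asns (0.01) changed sign with slide as a block, Id1 (-0.13) and Id3 (-0.06) with spike-in scaling, Arrdc4 (0.09) with the mean of its probes and Kcnk3 (0.34) without normoxia replicate 3, and some of them, with Bmpr2 and Pdgfra, in further settings. The cause was not tested. Of 257 genes named, 242 were called, 240 of them in one direction in every alternative and 197 called in every alternative that gave them a value. Probes well above background on all 9 arrays gave 11758 calls of 16585 genes and no dim-probe filter 13017 of 35066, and weak signal leaves the size of dim genes' changes uncertain.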
